A study of Homo sapiens with 12 samples.

Results

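GDF15, a secreted stress cytokine, and 9 genes of the integrated stress response were followed in HK-2, an established human cell line derived from the proximal tubule of the kidney. The 10 genes are GDF15, ATF3, ATF4, DDIT3, ASNS, TRIB3, CHAC1, SESN2, DDIT4 and PPP1R15A. They were found by Ensembl ID among the 20286 genes of the deposited table, and all 10 were among the 13512 genes with enough counts to be tested. GDF15 was chosen by its measured expression differences between the S100A9 group and the other groups of these libraries, so its differences between groups are given as a description. The other 9 were listed as a pathway, to see whether GDF15 moved with them.

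In the integrated stress response, kinases that sense unfolded protein, amino acid shortage, viral RNA or lack of haem phosphorylate the initiation factor eIF2. General translation slows while the mRNA of the transcription factor ATF4 is translated more, and ATF4 then raises genes for amino acid supply, feedback control and cell death. GDF15 is a distant member of the TGF-beta family that signals through the receptor GFRAL in the brainstem, and both this pathway and p53 are known to raise its transcription.

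Each of the 4 groups held 3 libraries, and all came from wild-type HK-2 cells, kept for 48 h in DMEM with 10% fetal bovine serum. One group received recombinant S100A8, another recombinant S100A9, and a further group recombinant S100A8/S100A9, each at the printed 5 mg/mL. That unit could not be checked. The control group received PBS instead. Myeloid cells release both proteins, which bind calcium and together form calprotectin. The labels do not say that libraries of a group came from separate cultures, so p-values reflect only how these libraries varied, which may be technical.

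Library totals ran from 15882177 to 20748321 counts, with between 15468 and 15642 genes above 0. Of the cell type markers, the epithelial list summed to between 1129 and 1273 CPM (counts scaled to the library total) in every library. The proximal tubule list summed to between 26.9 and 37.7 CPM, nearly all of it GGT1, while LRP2, the megalin receptor of that tubule segment, stayed at or under 0.251 CPM. The leukocyte list was almost wholly CD68, with PTPRC at or under 0.116 CPM, and the fibroblast collagen COL1A2 was at 0 in all 12 libraries. Fewer cells with a transcript and less of it per cell cannot be told apart in such bulk RNA.

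The pathway was transcribed without any added protein. On a scale that accounts for gene length (the deposited FPKM values), ATF4 stood highest in control cells at 178 ± 7.29 (SD, n = 3), followed by TRIB3 at 169 ± 8.78, and the ranges of mean ± SD of the pair overlapped. GDF15 came next at 131 ± 9.76 FPKM, then DDIT3 at 126 ± 9.98 and ASNS at 119 ± 9.01, and the ranges of mean ± SD of both overlapped that of GDF15. PPP1R15A reached 91.3 ± 5.33 and DDIT4 81.7 ± 1.10 FPKM. SESN2 at 29.4 ± 2.44 and ATF3 at 23.9 ± 4.94 FPKM also overlapped in their ranges of mean ± SD. CHAC1 was lowest, at 10.8 ± 0.737 FPKM. Over all 12 libraries the highest CPM of a gene exceeded the lowest by 1.08-fold for DDIT4 and by 1.37-fold for ATF3, with GDF15 at 1.34-fold.

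To show where the pathway's factors could meet these genes, the 250 bases before each RefSeq transcription start (build GRCh38.p14) were searched on both strands, and all 10 genes had such a window. The motifs were TGATGNAA, the core of the element that ATF4 binds together with C/EBP factors, TGACGTCA, the cyclic AMP response element, and the ER stress element, a spaced motif bound by ATF6. Some genes have more than 1 listed start, and parts of several windows are exons of longer GENCODE transcripts. The 4 matches are printed 5′ to 3′ on the gene's strand, 30 bases each, with the motif in capitals.
ATF3: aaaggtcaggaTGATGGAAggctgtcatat
ASNS: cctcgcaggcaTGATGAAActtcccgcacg
CHAC1: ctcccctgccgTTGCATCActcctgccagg
PPP1R15A: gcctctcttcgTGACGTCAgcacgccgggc
The ATF3 site lies at chr1:212565205-212565234 (plus strand), and its motif spans 191 to 184 bases before the start. The ASNS site is at chr7:97872458-97872487 (minus strand), with the motif 68 to 61 bases before the start. The CHAC1 site is at chr15:40953251-40953280 (plus strand), where TGATGNAA reads on the opposite strand, 209 to 202 bases before the start. The PPP1R15A site is at chr19:48872352-48872381 (plus strand), 58 to 51 bases before the start. TGATGNAA was found in 3.14% of the 35116 windows of this length, TGACGTCA in 1.65% and the ER stress element in 0.074%. These letters were not in the GDF15 window, chr19:18385908-18386157, which says nothing about binding there. A match describes the sequence only.

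GDF15 (ENSG00000130513, protein coding, chromosome 19, 18374731 to 18389176, plus strand, GRCh38) was highest after S100A9. Levels below are CPM scaled by the TMM method. GDF15 stood at 146, 147 and 165 CPM in the 3 control libraries, at 144, 135 and 153 after S100A8, at 166, 177 and 181 after S100A9, and at 150, 142 and 147 after S100A8/S100A9. The S100A9 libraries lay above all other 9, although the lowest of them, at 166.12 CPM, was only just above the control library numbered 3, at 165.46. The other 3 groups overlapped one another. Group means were 153 ± 10.96 CPM in control, 144 ± 8.91 after S100A8, 175 ± 7.71 after S100A9 and 146 ± 4.18 after S100A8/S100A9 (SD, n = 3).

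**Figure D1:**
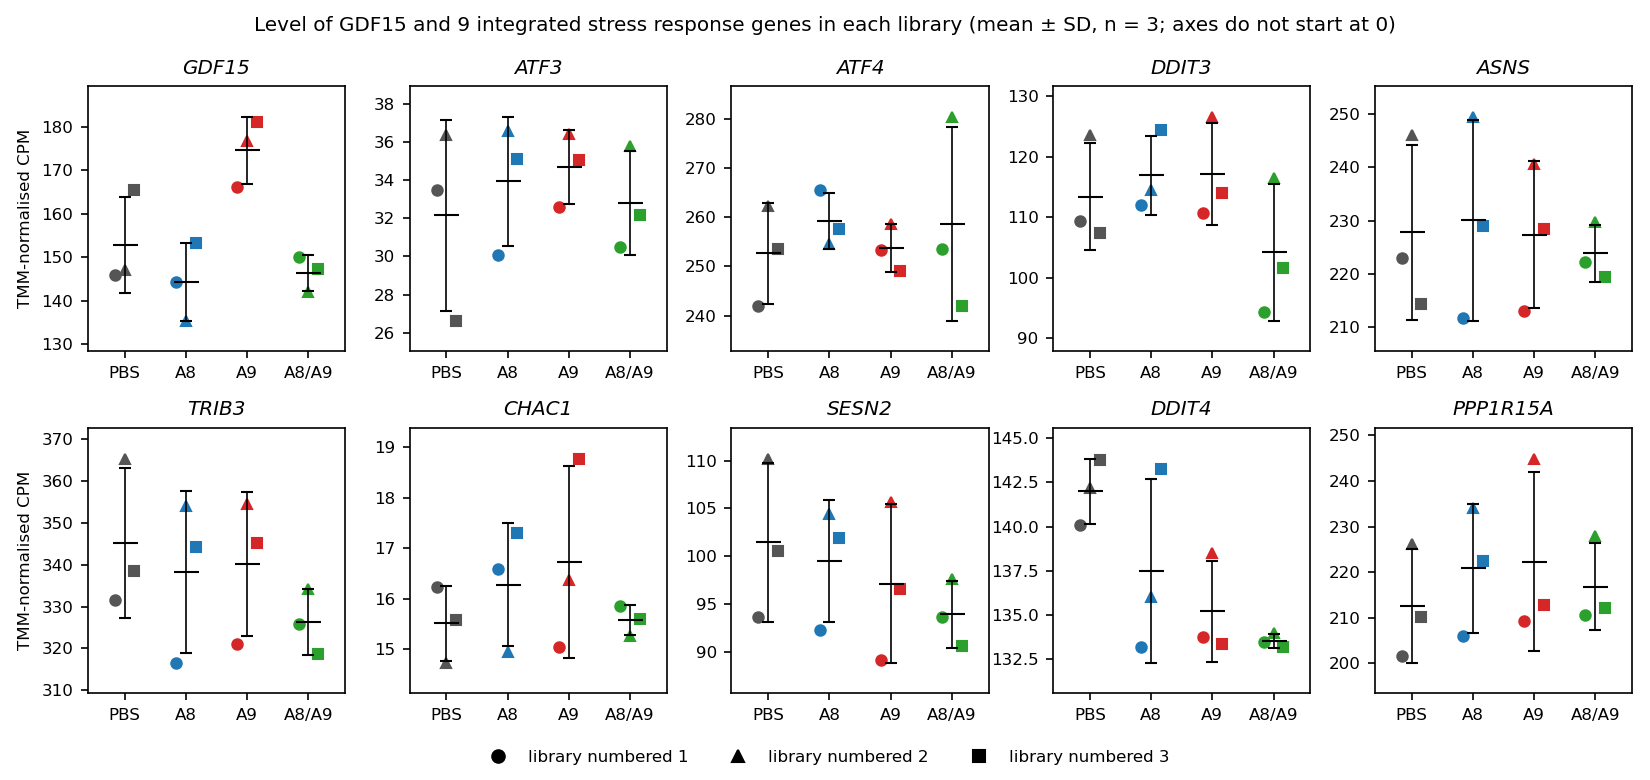
Level of each of the 10 genes in TMM-normalised CPM (vertical axes, not starting at 0) in the 12 libraries, by group (PBS control, S100A8, S100A9, S100A8/S100A9); marker shapes give the library number in the labels, and bars the mean ± SD of 3 libraries. GDF15 is highest in the 3 S100A9 libraries, at 166 to 181 CPM, while in most other panels the groups overlap.

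Against S100A8, the S100A9 group was higher in GDF15 by 0.28 on the log2 scale (95% interval 0.17 to 0.38), a 1.21-fold difference. GDF15 was among the 25 genes called between these groups, which is 0.185% of the genes tested, where called means a Benjamini-Hochberg adjusted p under 0.05 in edgeR's quasi-likelihood test. From S100A9 to S100A8/S100A9 it was lower by a log2 difference of -0.25 (-0.36 to -0.15), one of 34 genes called (0.252%). Against control, the S100A9 difference was 0.19 (0.09 to 0.30), and GDF15 was not among the 20 genes called (0.148%). The remaining differences were -0.08 (-0.19 to 0.02) for S100A8 against control, -0.06 (-0.17 to 0.04) for S100A8/S100A9 against control and 0.02 (-0.08 to 0.13) for S100A8/S100A9 against S100A8. These 6 comparisons share libraries, so they are not independent of one another.

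The GDF15 calls depended on which libraries were in the fit, while with 1 library left out the called differences stayed between 0.23 and 0.32 against S100A8 and between -0.29 and -0.23 from S100A9 to S100A8/S100A9. Without the control library numbered 3, GDF15 was called in S100A9 against control, at 0.25 with an adjusted p of 0.0429 in edgeR. The call against S100A8 was lost without S100A8 library 1 (0.28, edgeR adjusted p 0.0607), S100A8 library 2 (0.23, 0.173), S100A9 library 2 (0.27, 0.0652) or S100A9 library 3 (0.25, 0.166). That between S100A8/S100A9 and S100A9 was lost without S100A9 library 2 (-0.24, edgeR adjusted p 0.159) or 3 (-0.23, 0.261), or S100A8/S100A9 library 1 (-0.27, 0.0645), 2 (-0.23, 0.15) or 3 (-0.26, 0.122). Both calls were also lost in limma on the deposited FPKM values, with differences of 0.26 (adjusted p 0.306) and -0.25 (adjusted p 0.326). Both were kept in the Wald test of DESeq2 (adjusted p 0.00104 and 0.00494) and in edgeR without a filter on low counts (0.00131 and 0.00523). With library number as a block, edgeR also kept both (adjusted p 0.000176 and 0.000631). The same held with DESeq2 size factors (0.0117 and 0.0245) and on the 6 libraries compared (0.00981 and 0.0112). The summed epithelial markers ran from 1129 to 1180 CPM in the S100A9 libraries and from 1189 to 1273 CPM in the other 9, and their part in the GDF15 difference was not tested.

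The other 9 genes showed no called difference in any of the 6 comparisons. Of the 54 differences, 0 passed, 2 had an unadjusted p under 0.05 in edgeR's test, and the lowest adjusted p was 0.696. Log2 differences ran from -0.17 to 0.11, and no 95% interval reached beyond 0.344 in either direction, which is 1.27-fold. Over all genes, 1 was called in S100A8 against control (0.0074%), 0 in S100A8/S100A9 against control (0%) and 0 in S100A8/S100A9 against S100A8 (0%). In the last 2, edgeR gave 757 and 598 genes an unadjusted p under 0.05, and the Wald test of DESeq2 called 1 gene in each. That Wald test also called 0 of the 9 genes in every comparison of groups. In S100A9 against control, 5 of the 9 were above 0 and 4 below, with a median of 0.01, against -0.00 over all genes tested. In 5 of them, ATF4, ASNS, TRIB3, SESN2 and DDIT4, the upper 95% bound lay under the GDF15 difference of 0.19. That difference had its own 95% interval of 0.09 to 0.30. GDF15 was chosen by its S100A9 differences, so this order is a description. The difference between GDF15 and these genes was not itself tested.

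**Figure D2:**
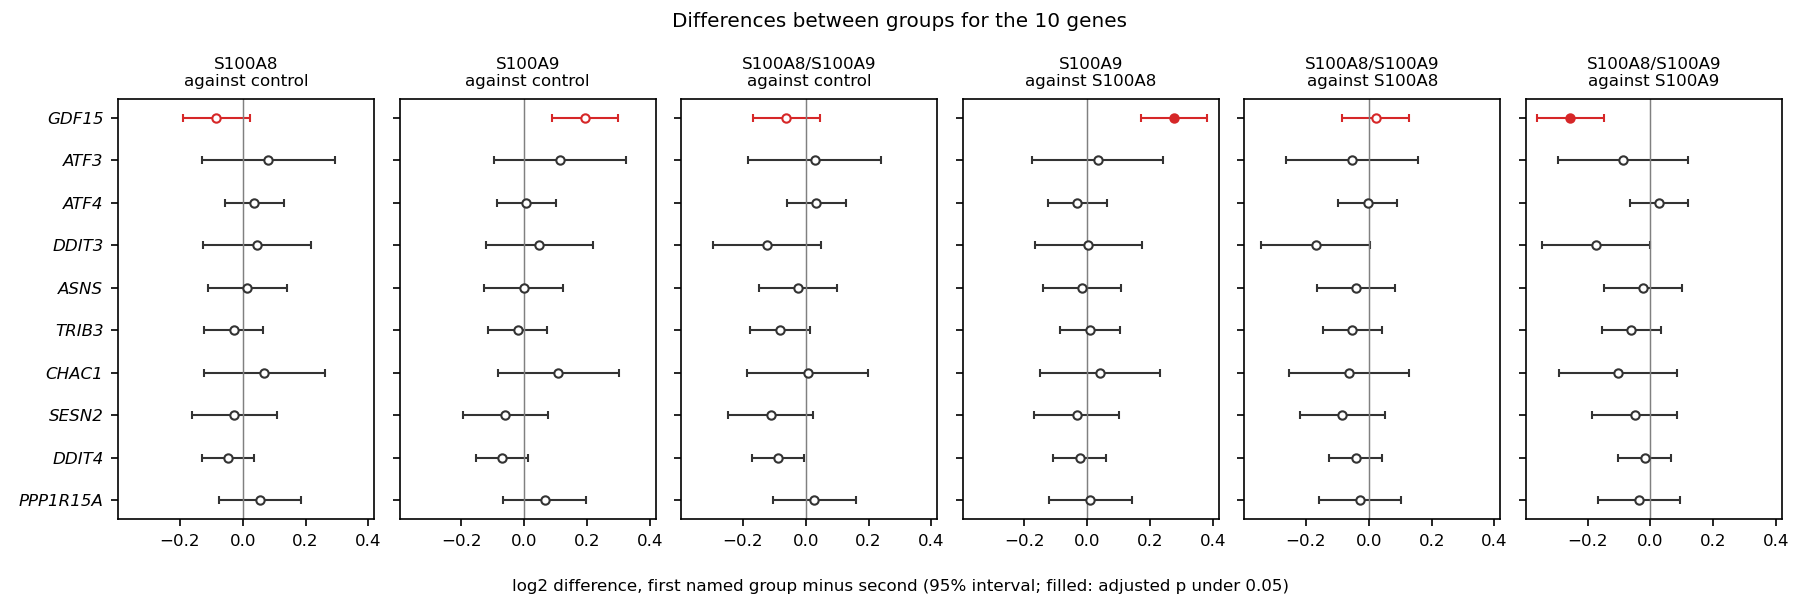
Log2 difference (horizontal axes) of the 10 genes in the 6 comparisons of groups, first named minus second, with 95% intervals from edgeR; filled points have an adjusted p under 0.05. The filled points are GDF15 in S100A9 against S100A8 (0.28) and in S100A8/S100A9 against S100A9 (-0.25), and the points of the other 9 genes lie between -0.17 and 0.11.

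Among the transcription factors, ATF4 (ENSG00000128272, chromosome 22), the central activator, is set largely by translation, which RNA levels do not show. It stood at 242, 262 and 254 CPM in control, 266, 255 and 258 after S100A8, 253, 259 and 249 after S100A9, and 254, 280 and 242 after S100A8/S100A9. Its S100A9 libraries lay within the range of the controls, with a difference of 0.01 (-0.09 to 0.10). ATF3 (ENSG00000162772, chromosome 1), a factor induced by ATF4 and by many other stresses, read 33.5, 36.4 and 26.6 CPM in control and 30.1, 36.6 and 35.1 after S100A8. After S100A9 it read 32.6, 36.4 and 35.1, and after S100A8/S100A9 30.5, 35.8 and 32.2. Of the members, ATF3 had the largest ratio of highest to lowest CPM over all libraries, at 1.37-fold, its low control library being number 3. In ATF3, S100A9 differed from control by 0.11 (-0.10 to 0.32).

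DDIT3 (ENSG00000175197, chromosome 12) encodes CHOP, a factor linked to cell death under lasting stress. It stood at 109, 124 and 107 CPM in control, 112, 114 and 124 after S100A8, 111, 127 and 114 after S100A9, and 94.4, 117 and 102 after S100A8/S100A9. The lowest 2 of the 12 values belonged to S100A8/S100A9, but the groups overlapped. S100A8/S100A9 differed from S100A9 by -0.17 (-0.34 to -0.00; edgeR p 0.0486, adjusted p 0.696) and from S100A8 by -0.17 (-0.34 to 0.00). Of the 1307 exon bases of DDIT3, 355 are shared with MARS1 and 58 with MBD6, both on the opposite strand. With AC022506.1, a further gene of the table, 105 are shared on the same strand. Whether reads were counted by strand is not given in the sources used here. Nor is how reads from the bases shared on the same strand were counted, so DDIT3 counts are less certain.

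ASNS, asparagine synthetase, is the target that amino acid shortage raises through ATF4 (ENSG00000070669, chromosome 7; the site with TGATGAAA above). Of its 4455 exon bases, 1985 are shared with AC079781.5, a gene on the same strand that is absent from the deposited table. How reads from the shared bases were counted is unknown, so ASNS counts are less certain too. ASNS read 223, 246 and 214 CPM in control, 212, 249 and 229 after S100A8, 213, 241 and 228 after S100A9, and 222, 230 and 219.51 after S100A8/S100A9. S100A9 and control overlapped, with a difference of -0.00 (-0.13 to 0.12). CHAC1 (ENSG00000128965, chromosome 15), which degrades glutathione, was the least abundant member, with 235 to 342 counts a library. It stood at 16.2, 14.7 and 15.6 CPM in control, 16.6, 14.95 and 17.3 after S100A8, 15.04, 16.4 and 18.8 after S100A9, and 15.9, 15.3 and 15.6 after S100A8/S100A9. Its highest value was in S100A9 library 3, and the group difference from control was 0.11 (-0.08 to 0.30).

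TRIB3 (ENSG00000101255, chromosome 20), a pseudokinase that restrains ATF4 and CHOP, read 332, 365 and 339 CPM in control, 317, 354 and 344 after S100A8, 321, 354 and 345 after S100A9, and 326, 334 and 319 after S100A8/S100A9. PPP1R15A (ENSG00000087074, chromosome 19) encodes GADD34, the subunit that directs a phosphatase to eIF2 and so ends the response. It stood at 202, 226 and 210 CPM in control, 206, 234 and 222 after S100A8, 209, 245 and 213 after S100A9, and 211, 228 and 212 after S100A8/S100A9. In both genes all groups overlapped. S100A9 differed from control by -0.02 (-0.12 to 0.07) in TRIB3 and by 0.07 (-0.07 to 0.20) in PPP1R15A.

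SESN2 and DDIT4 encode sestrin 2 and REDD1, which both restrain the growth kinase complex mTORC1. SESN2 (ENSG00000130766, chromosome 1) read 93.7, 110 and 101 CPM in control, 92.3, 104 and 102 after S100A8, 89.2, 106 and 96.6 after S100A9, and 93.7, 97.6 and 90.6 after S100A8/S100A9. DDIT4 (ENSG00000168209, chromosome 10) read 140, 142 and 144 CPM in control, 133, 136 and 143 after S100A8, 134, 138 and 133 after S100A9, and 133, 134 and 133 after S100A8/S100A9. DDIT4 was the only one of the 9 whose groups did not overlap: the controls lay above all S100A9 and all S100A8/S100A9 libraries. The 2 DDIT4 differences were -0.07 (-0.15 to 0.01) and -0.09 (-0.17 to -0.01). The second had an unadjusted p of 0.0383 and an adjusted p of 0.881 in edgeR. They were 2 of the 54 differences of the 9 genes. How often groups separate in this way over all genes was not counted, so the separation is a description. An antisense gene, DDIT4-AS1, which is absent from the deposited table, shares 847 of the 2058 exon bases of DDIT4.

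Whether GDF15 followed the other genes from library to library was asked with correlations of log2 CPM over the 12 libraries. None of the 9 passed after Benjamini-Hochberg adjustment in a permutation test with 100000 resamples, two-sided, the lowest adjusted p being 0.663. CHAC1 came nearest, with Pearson's r of 0.53 (permutation p 0.0737) and Spearman's rho of 0.43 (permutation p 0.168). Without S100A9 libraries 2 and 3, the pair farthest from the median of GDF15, r with CHAC1 was 0.06. Leaving them out also narrows the range of GDF15, which by itself can lower r with CHAC1. The step therefore cannot show what the 0.53 with CHAC1 rests on. On deviations from the group means, r was 0.63 (exact permutation p within groups 0.064, adjusted 0.576). On log2(FPKM + 1), r with CHAC1 over the 12 libraries was 0.80, with an adjusted permutation p of 0.00819. For the other 8 genes r ran from -0.23 (ATF4) to 0.17 (DDIT3).

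**Figure D3:**
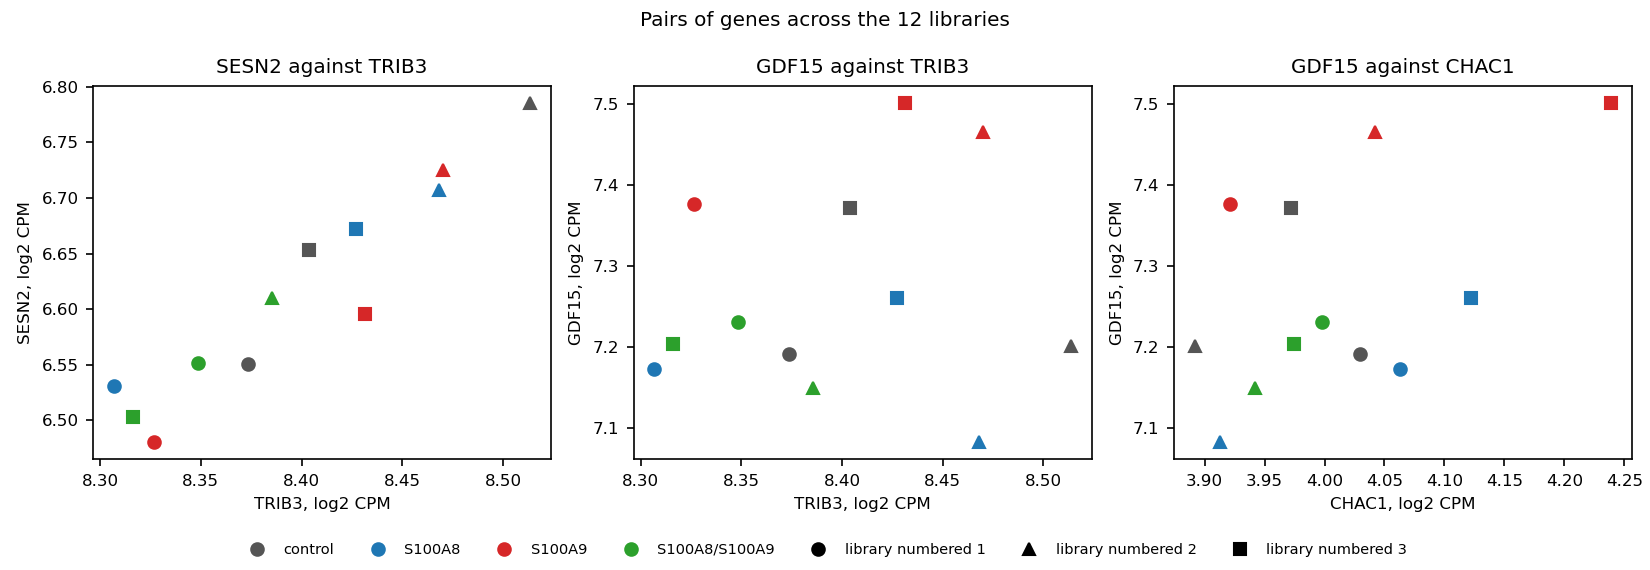
Log2 CPM of pairs of genes in the 12 libraries, coloured by group and shaped by library number: SESN2 against TRIB3, GDF15 against TRIB3 and GDF15 against CHAC1. SESN2 and TRIB3 fall near a line (r 0.95), GDF15 and TRIB3 do not (r 0.13), and S100A9 libraries 2 and 3 stand at the top of the CHAC1 panel (r 0.53).

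Several of the 9 genes did vary together. All 45 pairs of the 10 genes were examined after their values had been seen, so these figures describe the libraries. TRIB3 and SESN2 had r 0.95 and rho 0.92 over the 12 libraries (permutation p for r adjusted over 45 pairs 0.00045, the smallest that 100000 resamples allow), and r 0.94 without the 2 libraries farthest from the median of TRIB3. On deviations from group means their r was 0.96 (exact permutation p 0.000772, the smallest that 1296 permutations can give, adjusted 0.0347). ASNS and TRIB3 reached r 0.88 and rho 0.85, with r 0.80 without the 2 farthest libraries and 0.94 within groups. SESN2 and PPP1R15A reached r 0.76 and rho 0.76, with 0.81 and 0.94. In all, 6 pairs passed over the 12 libraries and 3 within groups by permutation, 0 of them with GDF15. The median r was 0.45 for the 36 pairs without GDF15 and 0.03 for the 9 with it. The order was the reverse on deviations from the means of both group and library number, where the medians were 0.29 and 0.35. All values of a library share its RNA, preparation and depth.

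**Figure D4:**
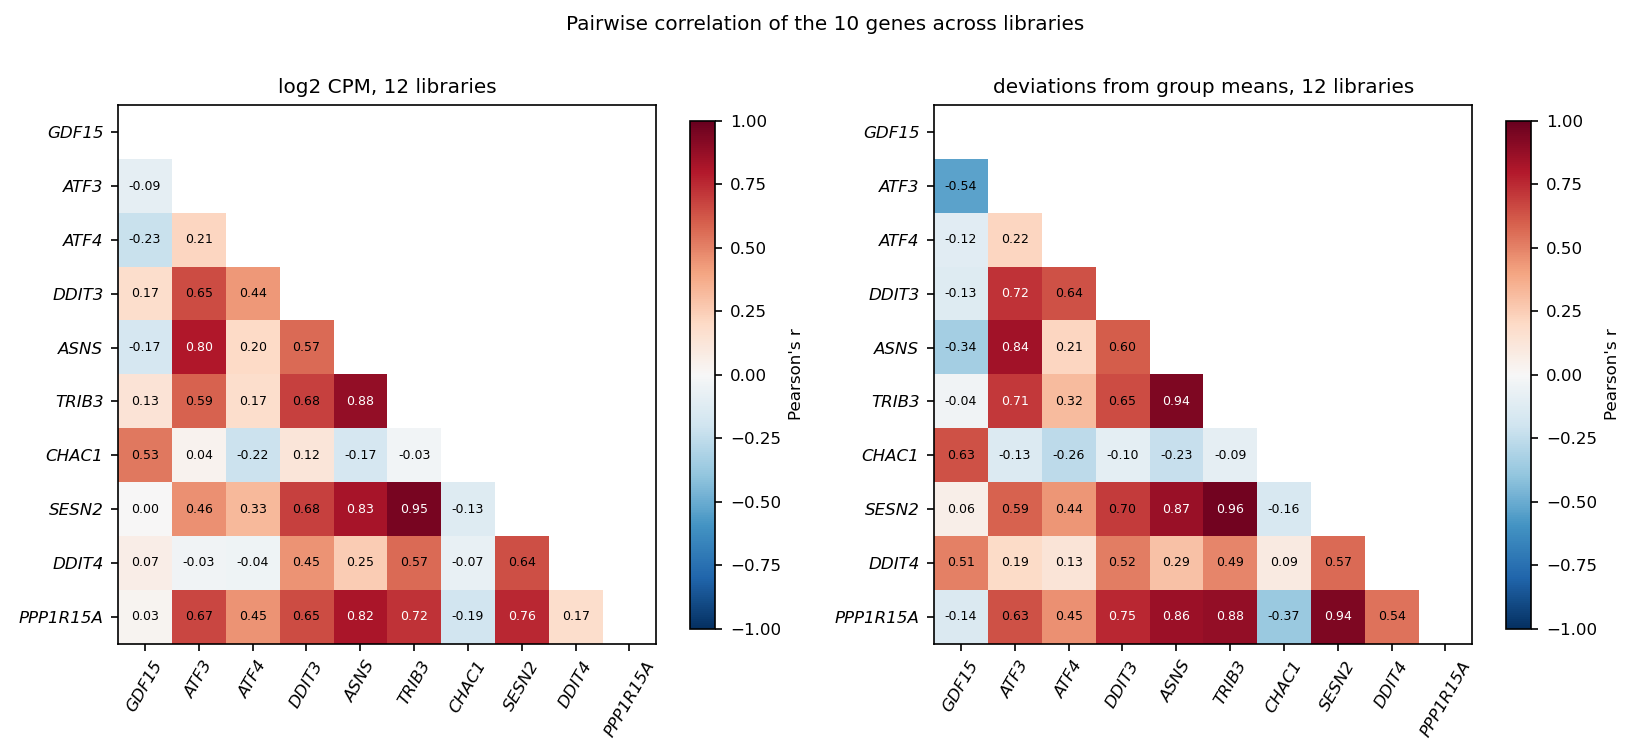
Pearson's r of log2 CPM for the 45 pairs of genes over 12 libraries (left) and of deviations from group means (right), on a colour scale from -1 to 1. ASNS, TRIB3, SESN2 and PPP1R15A form the block of high values, from 0.72 to 0.95 at left, and the GDF15 column holds values from -0.23 to 0.53.

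The joint variation went in part with the number that the labels give a library, whose meaning the labels do not state. The library numbered 2 was the highest of its group in 4 of 4 groups for ATF3, ASNS, TRIB3, SESN2 and PPP1R15A, in 3 for ATF4 and DDIT3 and in 0 for GDF15 and CHAC1. For GDF15 the library numbered 3 was highest in 3 of 4 groups. Libraries were then compared by number in a fit with group and number, a comparison chosen after seeing these values. Number 2 against 1 called 5 of the 10 genes in edgeR, all higher in 2, where 4.22% of all genes tested were called. These were PPP1R15A at 0.17 (0.11 to 0.24; adjusted p 0.000704), SESN2 at 0.18 (0.10 to 0.26), ASNS at 0.15 (0.08 to 0.22), DDIT3 at 0.18 (0.09 to 0.27) and TRIB3 at 0.12 (0.06 to 0.18). GDF15 stood at -0.02 (-0.09 to 0.06). Number 2 against 3 called 0 of 10 in edgeR (0.562% of all genes), although 8 had an unadjusted p under 0.05 and the DESeq2 Wald test called PPP1R15A. Of those 8, 7 were higher in number 2, and GDF15 was lower, by a difference of -0.11 (-0.18 to -0.03), in 4 of 4 groups. Number 3 against 1 called 0 of 10 (0.0148%), with an unadjusted p under 0.05 for GDF15 alone and 0 by the Wald test.

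Those calls varied with the libraries in the fit. PPP1R15A stayed past the threshold in 8 of 8 fits without 1 of the libraries numbered 1 or 2, ASNS in 6, SESN2 in 5, DDIT3 in 3 and TRIB3 in 2. Without control library 2, or without S100A9 library 1, 1 member was called, and without S100A9 library 2 there were 2. After the means of both group and number were removed, r was still 0.84 for TRIB3 with SESN2 and 0.85 for ASNS with TRIB3. It was 0.70 for SESN2 with PPP1R15A, which had 0.76 before, and 0.26 for ASNS with PPP1R15A, which had 0.82. For DDIT4 with PPP1R15A it was 0.89, with 0.17 before. On the same scale GDF15 had r 0.71 with SESN2, 0.60 with PPP1R15A, 0.52 with DDIT4, 0.46 with ATF4, 0.35 with CHAC1, 0.29 with TRIB3, 0.09 with DDIT3, -0.16 with ASNS and -0.51 with ATF3. These values describe the libraries and were not tested.

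**Figure D5:**
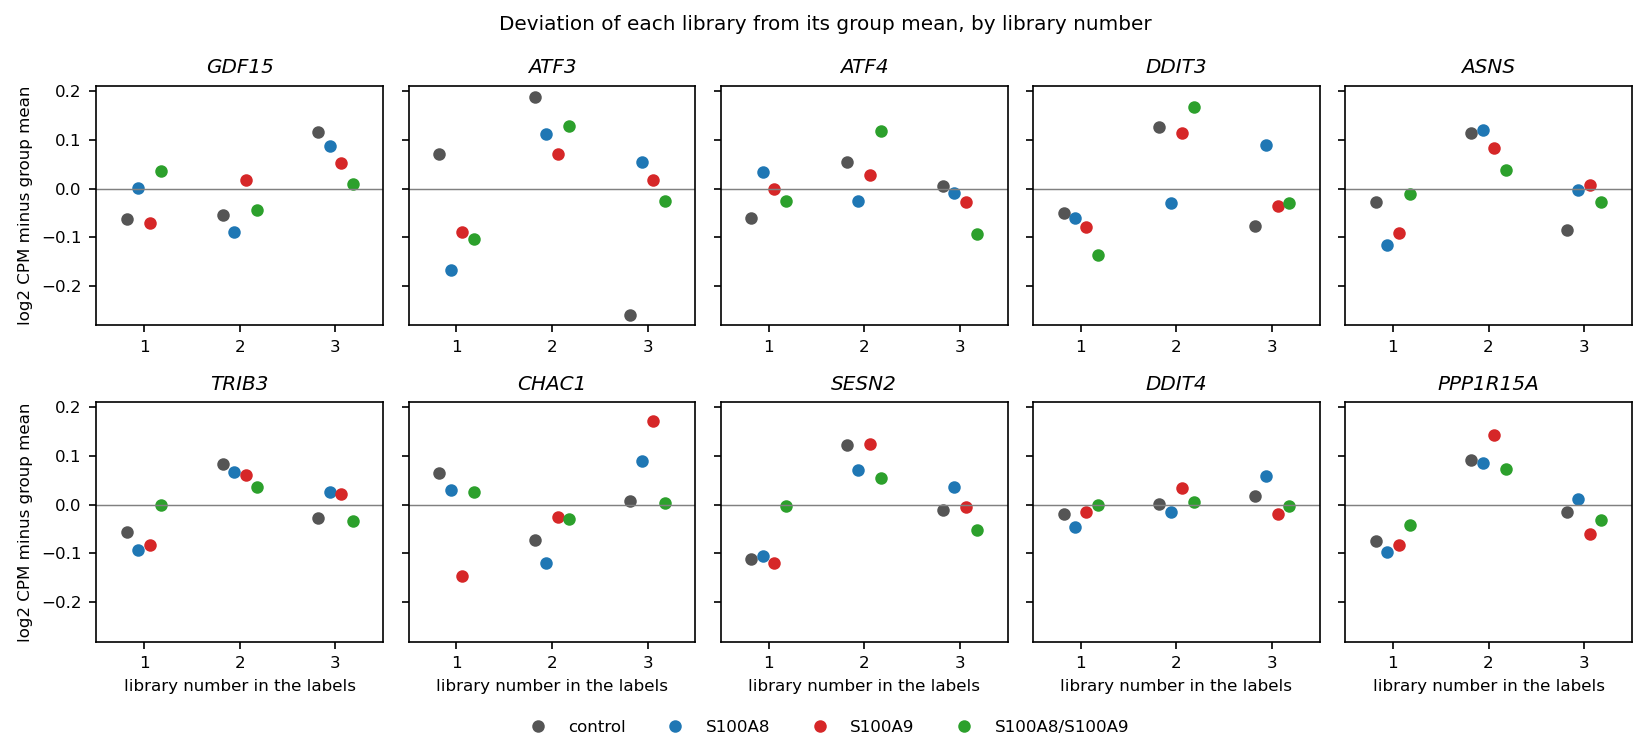
Deviation of each library's log2 CPM from its group mean (vertical axes) by the library number in the labels (horizontal axes), for the 10 genes, coloured by group. In the panels of ATF3, ASNS, TRIB3, SESN2 and PPP1R15A the 4 libraries numbered 2 lie above 0, and in that of GDF15 the 4 numbered 3 do.

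Further genes of the pathway were taken from fixed lists, with edgeR calls counted as above. Over the 6 comparisons 80 of the 81072 differences of all genes were called, and 5.59% had an unadjusted p under 0.05. With so few calls over all genes, 0 calls in a short list says little about that list. Of 18 genes for the eIF2 kinases, eIF2, its exchange factor eIF2B and the phosphatase, 0 were called in the 6 comparisons of groups, and 6 of 108 differences had an unadjusted p under 0.05. EIF2B5, the catalytic subunit of eIF2B, had one of the lowest p-values of that list, at 50.9 ± 2.91 CPM in control and 45.05 ± 0.791 after S100A8. EIF2AK1, the haem-regulated kinase, stood at 129 ± 2.36 CPM after S100A8 and 142 ± 9.62 after S100A8/S100A9. Neither passed the test.

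Of 32 other ATF4 targets tested, 0 were called between groups, and 18 of 192 differences had an unadjusted p under 0.05. In S100A9 against control 25 of the 32 lay above 0, with a median of 0.04, where 49.9% of all genes did with a median of -0.00. INHBE, an activin subunit, stood at 56.1 ± 1.10 CPM after S100A8 and 66.6 ± 3.58 after S100A9, with a difference of 0.25 (0.13 to 0.37) that was called only in alternative fits, such as that without a filter on low counts. CEBPB, a partner factor of ATF4, had 52.9 ± 4.68 CPM in control and 60.7 ± 3.24 after S100A9, also not called. Of the 20 cytosolic aminoacyl-tRNA synthetases, which ATF4 raises in part, 0 were called, with an unadjusted p under 0.05 in 2 of 120 differences, and in S100A9 against control their median was -0.00. SARS1 ran from 208 ± 5.02 CPM after S100A8/S100A9 to 222 ± 4.48 in control, and RARS1 from 80.3 ± 2.78 in control to 86.0 ± 1.58 after S100A8.

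The neighbouring arms of the unfolded protein response, driven by ATF6 and XBP1, had 1 called gene of 22. MANF, a protein of the endoplasmic reticulum that is secreted under stress, was lower after S100A8/S100A9, at 22.8 ± 1.43 CPM, than after S100A9, at 28.9 ± 0.549. The difference was -0.35 (-0.49 to -0.20; edgeR adjusted p 0.0199), and the libraries of the 2 groups did not overlap. The call was lost without S100A9 library 1 (-0.34, edgeR adjusted p 0.0689), 2 (-0.36, 0.0701) or 3 (-0.33, 0.161), and without S100A8/S100A9 library 1 (-0.29, 0.181) or 2 (-0.36, 0.0549). It was kept without S100A8/S100A9 library 3 (-0.38, edgeR adjusted p 0.0427). The alternatives other than leaving 1 library out kept it too. Their adjusted p ran from 0.00649 (edgeR with the replicate block) to 0.0486 (edgeR on the 6 libraries compared). In this list 13 of 132 differences had an unadjusted p under 0.05. In that comparison 5 of the 22 genes lay above 0, with a median of -0.04, against 49.4% and -0.00 over all genes. In S100A9 against control MANF differed by 0.18 (0.04 to 0.32), which was not called.

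Of 25 p53 targets, 0 were called between groups, and 7 of 150 differences had an unadjusted p under 0.05. Their median was 0.03 in S100A9 against control, with 18 above 0, then 0.08 in S100A9 against S100A8 and -0.08 in S100A8/S100A9 against S100A9, where 3 lay above 0. BTG2, an antiproliferative gene, read 8.98 ± 0.280 CPM after S100A9 and 6.84 ± 0.287 after S100A8/S100A9. BAX, a promoter of cell death, read 46.1 ± 3.14 CPM after S100A9 and 40.5 ± 1.57 after S100A8. Neither was called.

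Of the genes for GDF15's receptor, its processing and related ligands, 10 of 16 could be tested and 0 were called, with 2 of 60 differences at an unadjusted p under 0.05. GFRAL had 0 counts in all 12 libraries, and its partner RET had at most 28. FURIN, a protease that cuts proproteins of the TGF-beta family, stood at 54.9 ± 0.548 CPM in control and 58.8 ± 1.55 after S100A9, and GDF11 at 38.5 ± 3.22 and 38.7 ± 2.03. In S100A9 against control, 0 genes of this list had an unadjusted p under 0.05 in edgeR. Its 2 such differences lay in S100A9 against S100A8 (1) and in S100A8/S100A9 against S100A8 (1). Of 19 immediate early genes 0 were called, with 11 of 114 differences at an unadjusted p under 0.05. The DESeq2 Wald test called 0 genes of these lists apart from MANF. IER3 read 68.2 ± 3.13 CPM in control and 78.3 ± 1.70 after S100A9, and EGR1 5.04 ± 0.819 in control and 3.29 ± 0.433 after S100A8.

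By library number, 2 against 1, edgeR called 4.22% of all genes tested. Of the 18 genes of the eIF2 list it called 0. Of the 32 ATF4 targets it called 4 (12.5%): 3 were higher (STC2, ALDH1L2 and TXNIP at 0.53) and SLC38A2, an amino acid transporter, was lower at -0.21. Of the 25 p53 targets 5 were higher (20%): CDKN1A, the cell cycle inhibitor p21, at 0.23, GADD45A at 0.20, PLK3 at 0.32, POLK at 0.18 and TNFRSF10B at 0.15. Of the 20 synthetases YARS1 and IARS1 were higher (10%), and of the 22 genes of the ATF6 and XBP1 arms the chaperone HSPA5 at 0.13 and SEL1L (9.09%). The activin subunit INHBA, at 0.24, was 1 of 10 in its list (10%). KLF10, at 0.24, was 1 of 19 immediate early genes (5.26%), a share near that of all genes. TXNIP, SLC38A2, CDKN1A, GADD45A, INHBA and KLF10 were called in 8 of 8 fits with 1 library left out, the others in fewer. These genes were named after their values were seen.

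The genes most like GDF15 over the 12 libraries were ranked by r among 12760 genes with at least 1 CPM on average. First were CSF1, the macrophage growth factor, at r 0.92, SFT2D1 at 0.92, POU2F2 at 0.89, BCKDK, a kinase of branched-chain amino acid breakdown, at 0.89 and DRAM1, a p53 target of autophagy, at 0.88. CSF1 read 96.2 ± 9.75 CPM in control, 91.3 ± 3.81 after S100A8, 109 ± 5.51 after S100A9 and 94.1 ± 1.83 after S100A8/S100A9. DRAM1 read 142 ± 8.14, 136 ± 7.19, 162 ± 7.36 and 144 ± 5.32 CPM in the same order. In both, as in GDF15, the highest mean was that of S100A9. Genes picked for a high r with GDF15 over these same libraries tend to share its peak, so this is no separate support. Of the 9 genes, CHAC1 ranked 891, DDIT3 4308 and TRIB3 4778, and the lowest, ATF4, ranked 9295.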

How the data were processed

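RNA of 12 HK-2 libraries was sequenced after oligo(dT) enrichment. The authors deposited expected counts and FPKM values per gene and library, per the file headers; FPKM scales by gene length and depth, and 12.0% of the count entries were not whole. Which aligner, counter and annotation were used is not given in the sources used here. GRCm38 and mm10, both of mouse, stand in the submitters' processing notes, while the gene IDs are human, so the build behind the counts is unknown. Coordinates come from GENCODE 29 and, for windows, RefSeq. Of the IDs, 20228 were named by a gene name table, 50 by GENCODE and 8 not at all.

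Expected counts were rounded, filtered with filterByExpr (minimum count 10), scaled by TMM and fitted with edgeR 4.0.16 in R 4.3.3: a robust quasi-likelihood model on all 12 libraries, without a block, on 8 residual degrees of freedom, two-sided, Benjamini-Hochberg over 13512 genes, threshold 0.05. The common biological coefficient of variation was 4.65%. Intervals are 95%. Log2 CPM used a prior count of 2.

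Members and lists were chosen with earlier results of these data known. Named genes were the members, the 5 genes most correlated with GDF15, and from each list up to 4 genes called or else the 2 with the smallest p; genes named by library number were chosen after seeing their values.

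Alternatives were the replicate block, DESeq2 size factors, no filter, the Wald test of DESeq2 1.42.0, only the 6 libraries compared, limma 3.58.1 on log2(FPKM + 1), each library left out, and for correlations log2(FPKM + 1) and another prior count. Comparisons by library number and all 45 pairs were added after seeing the data. The fit was tested on simulated data.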

Additional observations from a re-analysis of the deposited data

Results flagged for a closer look

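Differences between treated groups in GDF15 drew attention because the effects of 2 treatments against the same control differed. S100A9 exceeded S100A8 by 0.28 on the log2 scale (edgeR quasi-likelihood test, adjusted p 0.0114), and S100A8/S100A9 differed from S100A9 by -0.25 (edgeR adjusted p 0.0224). In each comparison the 3 S100A9 libraries lay above the other 3. GDF15 was put forward with these values known, so they are a description and not independent support.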

How the results depend on the processing

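No called difference of the 10 genes between groups changed sign under any alternative run. Of all 720 values under alternatives, called or not, 63 changed sign, and these 63 were not called. For the 9 genes beside GDF15, 0 of 648 values were called, the lowest adjusted p being 0.194. The library numbers did not meet the criterion for a pairing, r over 0.1 in every same-number pair: 6 of 18 did in their deviations from group means (-0.078 to 0.249), 5 of them among the 6 pairs of libraries numbered 2, and 7 of 12 libraries correlated best with their own number.

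With the replicate block GDF15 was called in S100A9 against control (0.19, edgeR adjusted p 0.025; 1 member called), and genes called went from 1 to 2 in S100A8 against control, from 20 to 42 in S100A9 against control, from 0 to 2 in S100A8/S100A9 against control, from 25 to 69 in S100A9 against S100A8 and from 34 to 71 in S100A8/S100A9 against S100A9. In limma on log2(FPKM + 1) the corresponding counts were 0, 12, 0, 10 and 13, and both GDF15 calls were lost (0.26 and -0.25; 0 members called). In that scale r of GDF15 with CHAC1 was 0.80, past the threshold, and the only one of 126 alternative correlations to pass it. With the 6 libraries compared, counts were 0 in S100A8 against control and 2 in S100A8/S100A9 against control. The DESeq2 Wald test called 1 gene in S100A8/S100A9 against control and 1 in S100A8/S100A9 against S100A8. With no filter, S100A9 against control called 30 genes, and INHBE was called in S100A9 against S100A8, as it was with the block; the block also called CDKN1A in S100A8/S100A9 against S100A9.

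With 1 library left out, genes called ran from 0 to 2 in S100A8 against control, 11 to 22 in S100A9 against control, 0 to 2 in S100A8/S100A9 against control, 14 to 24 in S100A9 against S100A8 and 14 to 31 in S100A8/S100A9 against S100A9. Members called ran from 0 to 1 in the 3 comparisons with S100A9. GDF15 ran from -0.13 to -0.022, 0.16 to 0.25, -0.091 to -0.00024, 0.23 to 0.32 and -0.29 to -0.23 in the same order. By library number, the DESeq2 Wald test called 323 genes for 2 against 1 (570 in edgeR), 16 for 3 against 1 (2 in edgeR), and 1 member for 2 against 3. Without 1 library, 2 against 1 called 244 to 718 genes and 1 to 5 members, 2 against 3 22 to 75 genes and 3 against 1 1 to 40. For 2 against 1, fewest genes were called without control library 2, S100A9 library 1 or S100A9 library 2 (291, 244 and 261). The causes were not tested. Depth, 235 to 342 counts a library for CHAC1, limits that gene most.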
